A study of Mus musculus with 2 samples.

Results

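Replication-dependent histone genes encode the H1, H2A, H2B, H3 and H4 proteins that package newly copied DNA. They were chosen here by name alone, as every GENCODE M21 protein-coding gene whose symbol starts with Hist1h, Hist2h, Hist3h or Hist4h, which gave 67 of 21938 protein-coding genes. EP300, a histone acetyltransferase also called p300, was mapped by chromatin immunoprecipitation and sequencing (ChIP-seq) in liver of newborn (0 day) mice of strain B6NCrl. There was 1 group of 2 replicates with the same biosample and donor labels, no genotype or treatment was named, and the spread between the replicates may therefore be technical. The main list of peaks, made by the authors from both replicates and thresholded by the irreproducible discovery rate (IDR), is called the optimal list. It held 26883 peaks, of which 26844 lay on the chromosomes used (1 to 19, X and Y), and read depth is unknown.

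Histone genes of this kind are transcribed mainly in S phase, when DNA is copied, and most lack introns. Their mRNAs end in a stem-loop rather than a poly(A) tail, and stem-loop binding protein (Slbp) holds that end through processing and translation. The genes stand in clusters around which a nuclear body gathers the coactivator Npat and the 3′ end processing machinery. Hinfp is a zinc finger protein known for activating H4 genes, and Pou2f1 binds the octamer of H2B genes. EP300 is recruited by transcription factors and acetylates histones at enhancers and promoters.

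The name of the set was checked against the sequence of the mRNA end. The consensus of the histone stem-loop was found within 150 bases of the end of the coding sequence or transcript in 65 of 67 members (97.0%), and in 22 of the 21871 other protein-coding genes (0.101%). Both members in which it was not found, Hist1h2an and Hist2h2be, had an EP300 summit within 1 kb of the start. The members' stem-loops took 8 forms, which differed in the stem and in the loop, and the 3 commonest are shown because they carry the feature that names the set, as DNA letters of the genome on the strand of the gene, with the loop in capitals.
Form of 41 members: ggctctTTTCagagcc
Form of 9 members: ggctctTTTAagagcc
Form of 8 members: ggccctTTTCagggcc

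The tissue label was checked with marker genes, counting a summit within 10 kb of a transcription start site (TSS). Of protein-coding genes outside the histone set, 40.8% had one. A summit was present at 5 of 5 hepatocyte genes (Alb, Afp, Ttr, Apoa1 and Hnf4a), and at the red cell precursor genes Klf1, Gata1, Epor and Slc4a1. It was present at 1 of 5 genes of other tissues, Sftpc of lung, while Myod1, Neurod1, Krt14 and Cpa1 had none. Within 1 kb, 3 of 5 hepatocyte genes had a summit, and Afp and Hnf4a had none. The red cell precursor genes named each had one within 1 kb. Newborn liver holds dividing cells of several types, and which of them gave the histone gene peaks was not tested.

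Promoter sequences are printed for the member with the highest EP300 signal among those with an entry in each class, and for 2 members with no summit within 10 kb. Each is the 150 bases before the RefSeq start on GRCm38.p6, 5′ to 3′ along the gene, from RefSeq. Of the motifs searched on both strands, capitals mark the TATA box, searched as TATAAA, the CCAAT box, searched by those letters, and 3 elements known from histone genes. Those were the octamer of H2B promoters, searched as ATTTGCAT, the H1 box of linker histone promoters, searched as AAACACA, and the core of the Hinfp site, searched as GCGGAC. Also counted below, but left in lower case here, were the GC box as GGGCGG, the cyclic AMP response element as TGACGTCA, the site of GATA factors as GATAAG, and the site of ETS factors as CCGGAAG. The stretches of Hist1h2ad and Hist1h2bf overlap, read from opposite strands. An entry was found for 62 of 67 members, and the others were Hist1h3f, Hist1h2bc, Hist1h3a, Hist2h2be and Hist2h4.
Hist1h4c (chr13:23698459-23698608, reverse strand): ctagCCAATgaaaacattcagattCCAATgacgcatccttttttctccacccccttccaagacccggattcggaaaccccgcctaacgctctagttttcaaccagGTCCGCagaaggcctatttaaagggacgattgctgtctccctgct
Hist1h2ad (chr13:23574231-23574380, forward strand): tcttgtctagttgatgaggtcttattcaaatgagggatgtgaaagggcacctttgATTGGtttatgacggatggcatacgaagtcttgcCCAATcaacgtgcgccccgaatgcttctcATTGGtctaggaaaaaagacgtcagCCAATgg
Hist1h2bf (chr13:23574208-23574357, reverse strand): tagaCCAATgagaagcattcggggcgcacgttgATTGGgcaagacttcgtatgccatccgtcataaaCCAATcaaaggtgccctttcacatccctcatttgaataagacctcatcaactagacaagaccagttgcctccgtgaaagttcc
Hist1h1e (chr13:23622559-23622708, reverse strand): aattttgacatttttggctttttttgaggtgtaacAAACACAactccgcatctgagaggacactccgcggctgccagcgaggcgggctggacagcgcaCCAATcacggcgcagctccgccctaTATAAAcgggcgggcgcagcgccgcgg
Hist1h3e (chr13:23562386-23562535, reverse strand): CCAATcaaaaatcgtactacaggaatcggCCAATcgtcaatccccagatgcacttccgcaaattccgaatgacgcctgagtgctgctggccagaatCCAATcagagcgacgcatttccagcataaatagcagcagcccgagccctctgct
Hist1h2aa (chr13:23934287-23934436, forward strand): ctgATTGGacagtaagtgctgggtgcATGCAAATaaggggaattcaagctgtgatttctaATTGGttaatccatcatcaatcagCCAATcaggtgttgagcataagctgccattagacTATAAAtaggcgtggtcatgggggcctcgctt
Hist1h2ao (chr13:21810217-21810366, forward strand): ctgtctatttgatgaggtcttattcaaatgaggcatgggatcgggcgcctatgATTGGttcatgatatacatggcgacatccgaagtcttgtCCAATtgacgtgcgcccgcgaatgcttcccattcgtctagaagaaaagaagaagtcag

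EP300 peaks stood at the promoters of most histone genes. A summit lay within 1 kb of a TSS for 51 of 67 members (76.1%, 95% Clopper-Pearson interval 64.1 to 85.7%), against 23.6% of the other protein-coding genes. Within 10 kb a summit was found for 59 of 67 members (88.1%, 77.8 to 94.7%), against 40.8% of the others. The intervals cover the counting of genes only, and neighbouring members share peaks, so that 64 distinct summits stood within 1 kb and 92 within 10 kb. Some of these summits belong to overlapping entries of the list. Of the 64, the 62 that overlapped a peak in both replicates came to 57 distinct pairs of replicate peaks. Within 200 bases of a TSS the shares were 64.2% and 16.7%, and within 2 kb they were 85.1% and 27.1%. All 67 members had a summit within 50 kb, as had 65.8% of the others.

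**Figure D1:**
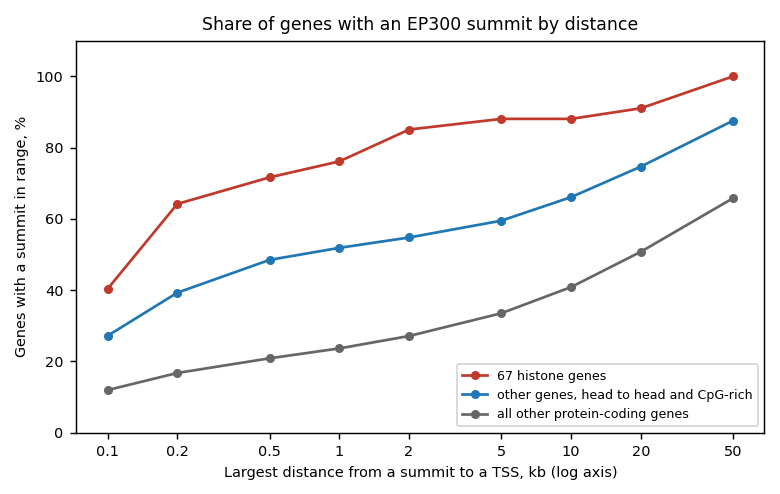
Share of genes (%, y axis) with an EP300 summit within a given distance of a TSS (kb, log x axis) for 67 histone genes, for other genes that stand head to head and are CpG-rich, and for all other protein-coding genes. At 1 kb the lines stand at 76.1%, 51.9% and 23.6%.

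Promoters of like layout were set beside these shares. A gene was called head to head when an opposite-strand TSS lay within 1 kb upstream, and CpG-rich when its promoter, from 250 bases before to 50 after the TSS, had an observed to expected CpG ratio of at least 0.6. Of the members, 27 stood head to head (40.3%, against 6.69% of other genes) and 48 were CpG-rich (71.6%, against 44.3%). Among other genes a summit within 1 kb was present at 49.8% of the head-to-head genes, 36.1% of the CpG-rich genes and 51.9% of the genes with both features. Among the members it was present at 77.1% of the 48 CpG-rich genes and 73.7% of the 19 others, and at 74.1% of the 27 head-to-head genes and 77.5% of the 40 others. The share of the members was thus similar with and without either feature, and above that of other genes with both.

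The summits sat just upstream of the start. For the 51 members with a summit within 1 kb, the nearest one lay at a median of −79 bases from the TSS (negative values are upstream). It was upstream in 43 of them (84.3%), and in 70.7% of the other genes with a summit in range. It lay within 200 bases in 84.3% of the members and 70.8% of the others. For the 11 H4 genes with a summit, every nearest summit was upstream of the GENCODE start, at −222 to −13 bases. These positions depend on the annotation, since for 11 members the GENCODE start is the first coding base. From the RefSeq start, the nearest summit of Hist1h4b lay 4 bases downstream.

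Peak strength was read from the authors' signal value, a score on an unstated scale, and it was used to rank peaks within a list. Taking the highest summit within 1 kb of each gene, the median over the 51 members was 65.0 (range 16.8 to 224), against 43.2 for the other protein-coding genes with a summit. These medians stood at the 75.7 and 57.3 percentiles of the optimal list. Counting each entry of the list once, overlapping entries included, the 64 peaks had a median of 49.6. It was 37.1 for the 6230 peaks at other promoters and 38.3 for the whole list. Of the 64 peaks, 9 (14.1%) were in the top 10% of the list, against 6.44% of the peaks at other promoters. The highest IDR score given, 1000, was held by 40 of them (62.5%), against 53.5%.

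**Figure D2:**
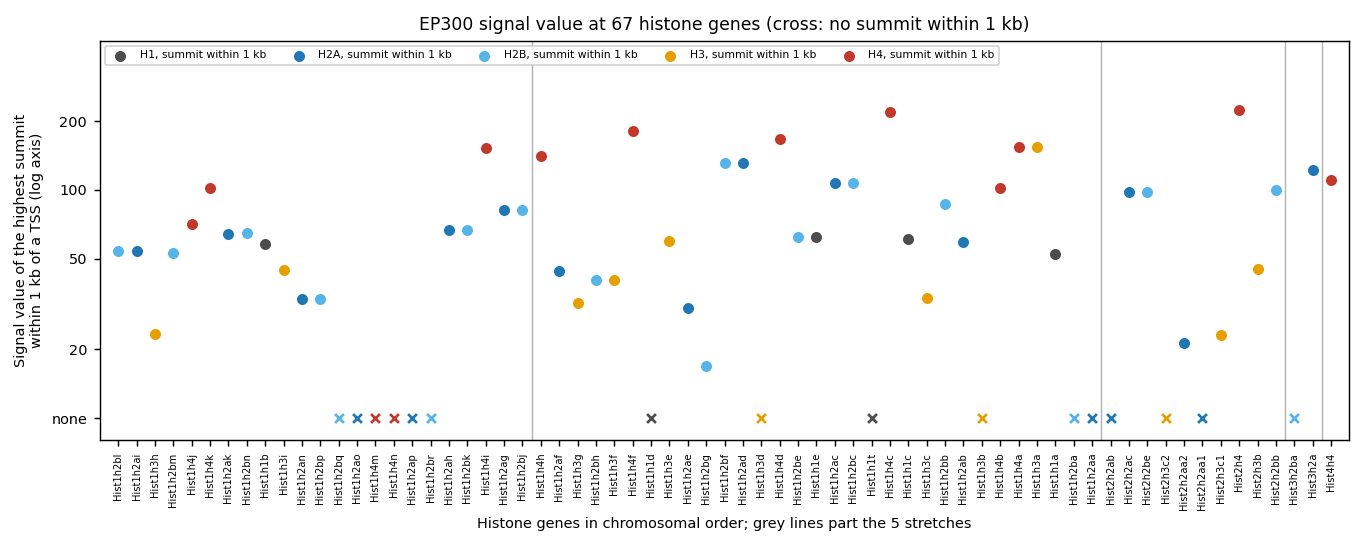
Signal value (log y axis, no unit) of the highest EP300 summit within 1 kb of a TSS for each of the 67 histone genes in chromosomal order, coloured by class, with crosses for the 16 genes without one and grey lines between the 5 stretches. In each stretch that holds an H4 gene with a summit, the highest point is an H4 gene. The H4 points run from 70.6 to 224, and some lie below genes of other classes. The 6 neighbouring crosses mark a repeated segment.

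The histone H4 genes carried the highest signal. H4 is among the most conserved proteins known and pairs with H3 in the core of the nucleosome. A summit within 1 kb was present at 11 of the 13 H4 genes, with a median signal of 153 (70.6 to 224), at the 92.9 percentile of the list. Hist2h4, on chromosome 3, had the highest value of any member, 224, with a summit at position 96263395, 84 bases upstream of its TSS. Its peak had 145 in replicate 1 and 80.3 in replicate 2, and ranked 953 and 1026 among the 300000 peaks of each replicate. Hist1h4c had 219.8, with its summit 13 bases upstream, inside the promoter printed above, where a match to the core of the Hinfp site stands in capitals. Its replicate values were 137 and 86.5, at ranks 1060 and 897.

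The next H4 genes followed closely. Hist1h4f had 180.2 (114 in replicate 1 and 70.2 in replicate 2). Hist1h4d had 166 (102 and 66.0). Hist1h4a had 154 (105 and 55.3), and the same peak was the highest within 1 kb of its H3 neighbour Hist1h3a. Hist1h4i had 153, with 119 in replicate 1 and 30.7 in replicate 2, the widest gap between replicates among these genes. Hist1h4h had 141 (92.8 and 48.0), and the lone Hist4h4 on chromosome 6 had 110.2 (64.6 and 49.5). Hist1h4b and Hist1h4k had 102 and 101, and Hist1h4j was the lowest of the class at 70.6 (40.6 and 27.7). The H4 genes Hist1h4m and Hist1h4n had no summit within 10 kb, and both lie in the repeated segment described below.

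Histone H3 genes stood lowest of the 5 classes in median. A summit within 1 kb was present at 9 of 12, with a median of 40.1 (23.2 to 154). The highest value belonged to Hist1h3a and came from the Hist1h4a peak. The highest H3 gene whose own TSS was the nearest to its peak was Hist1h3e at 60.0 (47.2 in replicate 1 and 16.8 in replicate 2). The lowest were Hist2h3c1 at 23.2 (14.4 and 12.5) and Hist1h3h at 23.3 (12.6 and 12.9). Hist1h3i, at 44.6, had 35.1 in replicate 1 at rank 9016 and 6.26 in replicate 2 at rank 51881, so its level was far apart in the replicates.

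The H2A and H2B classes, which pair in the nucleosome as a dimer, had close medians. For H2A a summit within 1 kb was present at 13 of 18 genes, with a median of 63.9 (21.4 to 131). For H2B it was present at 14 of 18, with a median of 65.7 (16.8 to 131). The pair Hist1h2ad and Hist1h2bf shared the highest peak of both classes, 131 (78.6 in replicate 1 and 53.6 in replicate 2). The lowest H2A value was that of Hist2h2aa2, 21.4, which had 20.9 in replicate 1 and no overlapping peak in replicate 2. The lowest H2B value was that of Hist1h2bg, 16.8, whose replicate peaks, shared with Hist1h2ae, had 15.9 and 12.5.

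Linker histone H1, which binds DNA between nucleosomes, had a summit within 1 kb at 4 of 6 genes, in a narrow range of 52.4 to 61.9 with a median of 59.5. The highest was Hist1h1e, 61.9 (50.6 and 23.4), but that summit was nearest to a TSS of Hist1h2be, and the summit 9 bases upstream of Hist1h1e itself had 53.8. Hist1h1c followed at 61.1 (46.1 and 19.1), and Hist1h1a was lowest at 52.4 (32.8 and 16.8). Hist1h1b stood between them at 57.9 (40.9 and 17.7). The linker genes without a summit within 1 kb of a GENCODE start were Hist1h1t, a testis gene, and Hist1h1d. The RefSeq start of Hist1h1d, treated below, lay 3 bases from a summit of 100.5, above the range of the other 4 genes.

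Because neighbours share peaks, the classes were also compared on the members whose highest summit was nearest to their own TSS, a choice made after seeing the data. The 11 H4 genes kept their median of 153 (70.6 to 224). For 3 H1 genes it was 57.9 (52.4 to 61.1), for 9 H2A genes 59.3 (21.4 to 131), for 8 H2B genes 73.4 (33.2 to 107) and for 8 H3 genes 36.9 (23.2 to 60.0). On these own summits the H4 values did not overlap those of H3 or H1, and they overlapped those of H2A and H2B. The H1 side rests on 3 genes and leaves out Hist1h1d by its GENCODE start. From its RefSeq start Hist1h1d had a summit of 100.5 at 3 bases, which lies inside the H4 range. The order of the H4 and H3 medians was the same in each replicate, but in replicate 1 the ranges overlapped. In replicate 1 the H4 peaks ranked 953 to 7319 with a median of 1835, the H3 peaks 5870 to 34683 with a median of 17962, and the best H1 peak ranked 6057. In replicate 2 the H4 peaks ranked 897 to 4809 with a median of 2190, the H3 peaks 7275 to 51881 with a median of 12432, and the best H1 peak ranked 8129. The peaks come from the same 2 libraries, and no test was made between classes.

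**Figure D3:**
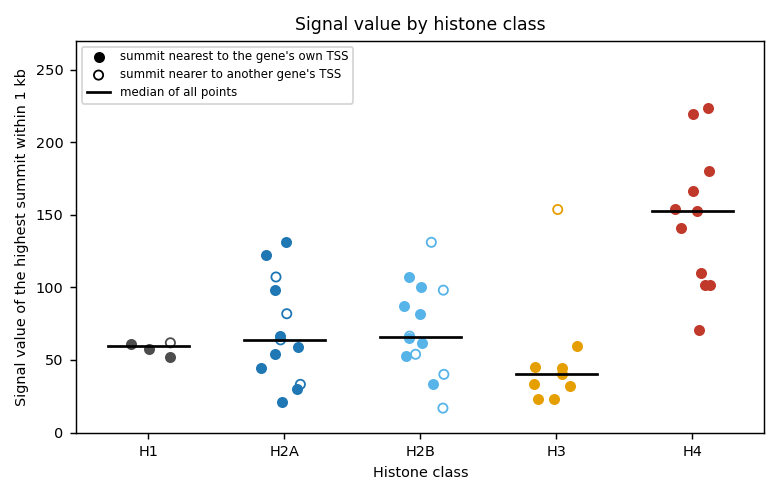
Signal value (y axis, no unit) of the highest EP300 summit within 1 kb for each member by histone class (x axis); filled points are summits nearest to the gene's own TSS, open points are summits nearer to another gene, and lines are medians. The H4 median of 153 stands above the H1, H2A, H2B and H3 medians of 59.5, 63.9, 65.7 and 40.1, and the single open H3 point is the peak of Hist1h4a.

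The members lie in 4 named clusters. The large Hist1 cluster on chromosome 13 held 54 members, 42 of them with a summit within 1 kb, with a median of 62.9 (16.8 to 219.8), from Hist1h2bg up to Hist1h4c. The Hist2 cluster on chromosome 3 held 10 members, 7 with a summit, with a median of 98.1 (21.4 to 224). Its members were Hist2h4 as above, Hist2h2bb at 100.2 (66.3 in replicate 1 and 31.9 in replicate 2), Hist2h2ac and Hist2h2be with 1 shared peak of 98.1 (70.1 and 41.6), Hist2h3b at 45.0 (28.4 and 10.1), Hist2h3c1 and Hist2h2aa2. The Hist3 cluster on chromosome 11 held 2 members. Hist3h2a had 122 (95.1 and 36.5), at a TSS that it shares with Trim17, a ubiquitin ligase gene, and Hist3h2ba had none within 1 kb. Hist4h4 on chromosome 6 is the single Hist4 member. The difference of 35.3 between the Hist2 and Hist1 medians came to 9.71 with each peak counted once, and to −38.0 with the highest summit within 10 kb. As a difference in percentile it was 11.7, −1.07 and −5.20 in turn, so the order of these clusters depended on how peaks were given to genes.

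Within the clusters the peaks were dense. The Hist1 members fall into 2 stretches, split at gaps of over 200 kb. The first, chr13:21715763-22043676, spans 327.9 kb and held 23 members and 31 summits, or 94.5 per Mb. The second, chr13:23531050-23934851, spans 403.8 kb and held 31 members and 49 summits, or 121 per Mb, against 11.6 per Mb over the whole of chromosome 13. The Hist2 stretch, chr3:96219865-96270132, held 9 summits, or 179 per Mb, against 8.80 per Mb over chromosome 3. The stretches are bounded by members, so these densities include the promoter peaks counted above. In the 3 stretches in turn, 21, 31 and 6 summits lay within 1 kb of a member TSS, and 10, 18 and 3 lay elsewhere.

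Genes of other kinds stand between the histone genes. Of 49 other protein-coding genes between the first and last Hist1 member, 2 had a summit within 1 kb (4.08%) and 9 within 10 kb (18.4%). Of these 49, 36 were Vmn1r genes, a family of vomeronasal receptors that stands outside both stretches, and 0 of the 36 had a summit within 10 kb. Of the 13 others, 2 had a summit within 1 kb (15.4%) and 9 within 10 kb (69.2%). The 49 neighbours together were CpG-poor, with a median CpG ratio of 0.078 against 0.75 for the members. The pair with a summit within 1 kb were Slc17a4, a solute transporter gene, at 120.5, and Zfp322a, a zinc finger gene, at 18.4. Of the peaks inside the 5 stretches, 31 lay over 1 kb from any member TSS. The highest of these, with 140, had its summit at chromosome 13 position 23596173, 14575 bases from the nearest TSS, which is that of Hist1h4d. Transfer RNA genes also fill the Hist1 span, 77 in all, and 14 of them (18.2%) had a summit within 500 bases, against 26.4% of the 326 elsewhere. Of the 31 peaks away from member starts, 5 lay within 500 bases of a transfer RNA gene.

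Head-to-head pairs shared summits in the gap between their starts. The members formed 13 such pairs, of which 12 joined an H2A with an H2B gene and the other joined Hist1h2bh with Hist1h3f. The starts of a pair were 176 to 660 bases apart, with a median of 268. A summit lay between the starts in 9 pairs, with signals of 22.2 to 131 and a median of 66.4. The 4 pairs without one were Hist1h2ao with Hist1h2bq, Hist1h2ap with Hist1h2br, Hist1h2aa with Hist1h2ba, and Hist1h2ae with Hist1h2bg. The last of these had summits of 30.3 and 16.8 near the 3′ end of Hist1h2ae instead.

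Of the 16 members with no summit within 1 kb, 8 had none within 10 kb either. In 6 of these, Hist1h2bq, Hist1h2ao, Hist1h4m, Hist1h4n, Hist1h2ap and Hist1h2br, the nearest summit was 22777 to 46349 bases away. They stand side by side in the first stretch of chromosome 13, in sequence that occurs more than once in the genome. In the 300 bases on each side of their starts, at least 94.4% of the 32-base words were found elsewhere in the genome. The remaining 2 were Hist1h2ba and Hist1h2aa, known as testis genes, with the nearest summit 19124 and 19430 bases away. Their starts were of mostly single-copy sequence, with 12.5% and 2.46% repeated words. The printed promoter of Hist1h2aa holds matches to the CCAAT box, the octamer and the TATA box, and that of Hist1h2ao holds CCAAT matches.

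The full list of 300000 peaks per replicate, which reaches far lower signals, was searched for the same 8 genes. In either replicate no summit lay within 1 kb of Hist1h2bq, Hist1h2ao, Hist1h4n, Hist1h2ap, Hist1h2br, Hist1h2ba or Hist1h2aa, and Hist1h4m had 1, of 5.77, in replicate 1. In these full lists a summit within 1 kb was present at 59 and 58 members, and at 58.5% and 52.9% of the other genes. The sources used here do not give the treatment of reads that match several places, and the part of repeated sequence in these missing peaks was not tested.

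Over all members, 10 had more than 75% repeated words, a limit set after seeing the data, and 2 of these had a summit within 1 kb, Hist2h2aa2 and Hist2h3c1, with 21.4 and 23.2. Of the 57 others, 49 had a summit within 1 kb (86.0%) and 55 within 10 kb (96.5%). The near-identical Hist2h2aa1 and Hist2h3c2 had 78.4% and 94.4% repeated words and no summit within 1 kb. Values at these 10 genes are uncertain. Among genes with a summit, the median share of repeated words was 30.0% for H4. It was 42.5% for H2A, 33.3% for H2B, 36.0% for H3 and 7.37% for H1. The H4 median thus lay below those of H2A, H2B and H3 and above that of H1. The part of repeated words in the class signals was not tested.

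**Figure D4:**
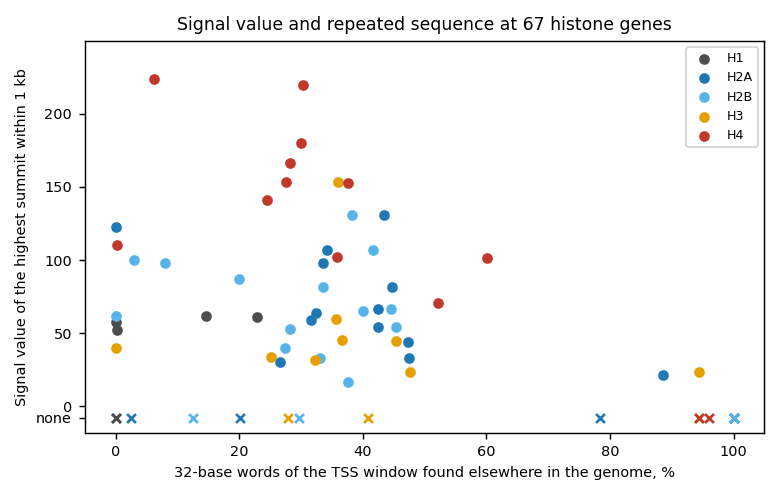
Signal value (y axis, no unit) of the highest EP300 summit within 1 kb of each of the 67 members against the share of 32-base words around its TSS that occur elsewhere in the genome (%, x axis), coloured by class; crosses are genes without a summit, and several coincide at 100%. Above 75%, 2 of 10 genes have a summit, with 21.4 and 23.2, and the highest points, Hist2h4 and Hist1h4c, lie at 6.14% and 30.4%.

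The other members without a summit within 1 kb had one nearby in the optimal list. In the full replicate lists each had a summit within 1 kb in both replicates, except Hist2h3c2, which had 1 in replicate 2 only. Such summits stood at 58.5% and 52.9% of the other genes. Hist1h3b had 28.1 at rank 12345 in replicate 1 and 8.61 at rank 25166 in replicate 2. Distances below are from summits of the optimal list. At the limit, Hist1h2bg and Hist2h3c1 were just inside with summits 856 and 881 bases away, and Hist3h2ba and Hist2h2ab were just outside at 1066 and 1127. Hist1h3b and Hist1h3d had their nearest summits 1220 and 1400 bases away, next to the starts of Hist1h2ab and Hist1h2ad, and Hist1h1t had one at 2653 bases, that of Hist1h4c. For Hist1h1d the annotations differed. Its GENCODE start lay 1558 bases from a summit, and its coding sequence began 1828 bases into the gene. Its RefSeq start, at position 23555032, was 3 bases from a summit of 100.5, which would be the highest among the H1 genes.

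Both replicates held nearly all of these peaks. Of the 64 peaks within 1 kb of a member, 64 overlapped a peak in replicate 1 and 62 in replicate 2, so that 62 (96.9%) were matched in both, against 92.6% of the 6230 peaks at other promoters. The pair not matched in replicate 2 were the peak of Hist2h2aa2 and a weak peak of 10.7, 954 bases from Hist1h4j. The optimal list was made from these replicates, so a match is no independent support. Against the 26883 highest peaks of each replicate, 50 (78.1%) were matched in both, against 64.8% at other promoters. With summits within 100 bases the share was 76.6%, and with overlap over at least 50% of the peak it was 89.1%. Across the 57 distinct pairs of replicate peaks, Spearman's rho was 0.843, as a description over peaks that come from the same 2 libraries. The median log2 ratio of replicate 1 over replicate 2 was 0.67 (SD 0.62), and since each list has its own scale, ranks serve better than this ratio.

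**Figure D5:**
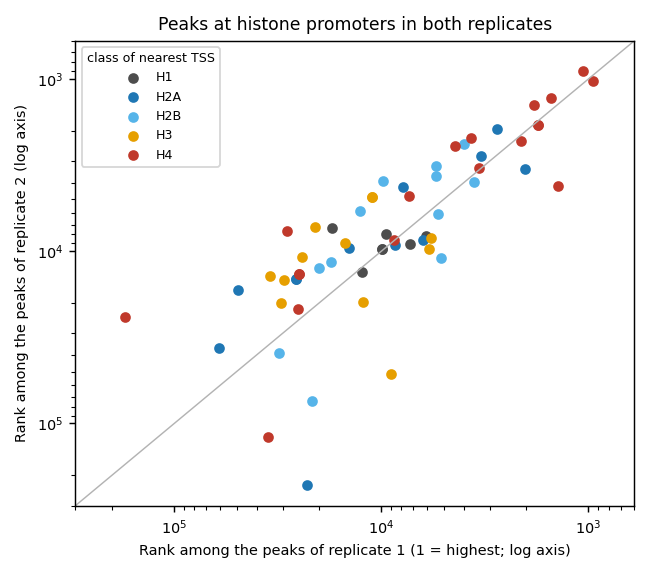
Rank of each peak at a histone promoter in replicate 1 (x axis) and replicate 2 (y axis), among 300000 peaks per replicate, with rank 1 the highest, both axes log and reversed, coloured by the class of the nearest TSS. The line marks equal ranks. The highest peaks of H4 genes lie toward the upper right, up to ranks 953 in replicate 1 and 897 in replicate 2. Weaker peaks next to H4 genes lie far lower, such as 1 at Hist1h4j with ranks 172453 in replicate 1 and 24201 in replicate 2.

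The replicate lists taken alone gave like shares. Among the highest peaks of replicate 1, a summit within 1 kb was present at 53 members (79.1%), against 27.2% of other genes. Among those of replicate 2 it was present at 52 (77.6%), against 22.1%. The median percentiles by class were 93.2 and 91.9 for H4, 79.7 and 84.7 for H2B, 76.4 and 79.7 for H2A, 75.2 and 68.0 for H1, and 54.1 and 57.1 for H3, in replicates 1 and 2. H4 was highest and H3 lowest in each.

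Promoter motifs were counted from 250 bases before to 50 after the GENCODE start, by the letters given above, on both strands. A match is a description and does not show that a factor bound, and a Hinfp core can overlap a GC box. The starts of the 12 head-to-head H2A and H2B pairs were 176 to 306 bases apart, so the windows of partners overlap. The same match can therefore be counted for both partners. The H2A and H2B counts, here and below, are thus counts of genes and not of separate sites. The CCAAT box was found in 83.6% of members and 38.9% of other genes. It was in 18 of 18 H2A, 18 of 18 H2B, 11 of 12 H3 and 5 of 6 H1 promoters, and in 4 of 13 H4 promoters. The TATA box was found in 55.2% of members and 12.5% of others. The octamer, in 22.4% of members and 1.51% of others, was found in 7 H2A and 8 H2B promoters and in none of the H1, H3 and H4 promoters.

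The Hinfp core was in 9 of 13 H4, 7 of 18 H2B, 5 of 18 H2A, 1 of 12 H3 and 0 of 6 H1 promoters, and in 32.8% of all members against 10.7% of other genes. The GC box was in 10 of 13 H4 and 4 of 6 H1 promoters, though its share over all members (41.8%) was near that of other genes (43.0%). The H1 box was in 4 of 6 H1, 3 of 18 H2B, 1 of 18 H2A and 1 of 12 H3 promoters, and in 13.4% of members against 6.37% of others. The GATA site (5.97% of members and 6.93% of others) was near the background, the ETS site (1.49% and 10.8%) below it, and the cyclic AMP response element was in 4 members (5.97%, against 2.42%).

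Motif content was set against EP300. The CCAAT box was in 43 of the 51 members with a summit within 1 kb and in 13 of the 16 without, and the TATA box in 28 and in 9. The Hinfp core was in 18 and in 4, and the GC box in 25 and in 3. Among members with a summit, the median signal was 91.6 with the Hinfp core and 61.1 without it, 86.9 with the octamer and 61.9 without it, and 61.9 with the CCAAT box and 106 without it. The classes differ in both motifs and signal, and the part of either in these medians was not tested.

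Other genes of the pathway were described beside the histone genes. Of 24 factors of histone gene transcription and mRNA processing, 12 had a summit within 1 kb (50%, beside 23.6% over genes outside the histone set) and 17 within 10 kb (70.8%, beside 40.8%), with a median signal of 32.7. The highest were Snrpd3 at 113, Snrpg at 60.3, both of the Sm ring of spliceosomal and U7 particles, and Zfp473, a zinc finger protein of the U7 processing complex, at 59.6. Hinfp had 48.6, Slbp 41.5, Pou2f1 27.4 and Npat 21.5, all below the histone gene median of 65.0. None lay within 10 kb of Casp8ap2, Ccne2, Cstf2, E2f1, Lsm11, Snrpb or Snrpf.

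Replacement histones, most of which can be made outside S phase, had a summit within 1 kb at 7 of 13 genes (53.8%). Within 10 kb, 8 had one (61.5%). Over genes outside the histone set these shares were 23.6% and 40.8%. The median signal within 1 kb was 65.1, close to that of the replication-dependent genes. The highest were H2afx, the variant phosphorylated at DNA breaks, at 96.1, H3f3b, which encodes H3.3, at 70.5, and H2afj at 70.0. H1fnt, H1foo, H1fx, H2afy and H2afy2 had none within 10 kb. Among 17 histone chaperones, which carry histones to DNA, 7 had a summit within 1 kb (41.2%, beside 23.6%), with a median of 44.8. Within 10 kb, 12 had one (70.6%, beside 40.8%). The highest were Mms22l at 94.3, Ssrp1, a subunit of the FACT complex, at 59.0, and Chaf1a, a subunit of chromatin assembly factor 1, at 52.4. Asf1a, Hira, Hjurp, Nap1l1 and Ubn1 had none within 10 kb.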

How the data were processed

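EP300 ChIP-seq peak lists on build mm10 were used, 4 in all: 1 per replicate, and the optimal and conservative lists thresholded by IDR. Per the file headers and the labels, alignments of the samples and of a control went into the lists. The names and versions of the aligner and caller and the IDR threshold were not given in the sources used here. The authors' signal value (column 7) and the IDR value in the deposited lists are each a score per peak. No list gives read counts, so depth is unknown and intervals cover counting only.

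The members and lists were chosen with earlier results of these data known. Every transcript start in GENCODE M21 (GRCm38) served as a TSS, and a summit was the peak start plus its offset, in 1-based coordinates. The conservative list held 23700 peaks. Columns belonging to samples of another series numbered 0. Members were described by counts and medians beside the same for all other protein-coding genes, and no test was made over the list. Named with values were the 10 members of highest signal, the highest and lowest per class and cluster, members with a summit outside Hist1, members without one within 10 kb, those at the 1 kb limit, and in other lists the 3 highest genes and those without a summit within 10 kb. Further members (Hist1h4b, Hist1h4k, Hist1h3i and those named for shared peaks or starts) and Hinfp, Slbp, Pou2f1 and Npat were named after their values were seen. The comparison with transfer RNA genes and that of other peaks in the stretches, and the split of neighbouring genes into Vmn1r genes and others, were also chosen then. Promoters and stem-loops were read from GRCm38.p6, and repeated words by an exact search of the genome on both strands. One marker gene of the tissue check is not reported here. The summit search was tested on simulated data. Python 3.11.15, pandas 2.3.3, numpy 2.4.6, scipy 1.17.1 and matplotlib 3.10.9 were used. Alternatives in lists, distances, starts, peak assignment, matching and motif window were tried.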

Additional observations from a re-analysis of the deposited data

How the results depend on the processing

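In 28 of 28 settings tried, the share of histone genes with a summit exceeded that of the other genes. The 1 kb share of 76.1% (23.6% of other genes) was 62.7% (13.9%) on the top 50% of the list. It was 64.2% (21.2%) when each summit went to its nearest TSS. With replicate 1 left out it was 77.6% (22.1%), and with replicate 2 left out 79.1% (27.2%). Without members of over 75% repeated words it was 86.0% (23.6%). The 10 kb share of 88.1% (40.8% of other genes) was 68.7% (33.7%) when each summit went to its nearest TSS. It was 100% (65.8%) within 50 kb and 96.5% (40.8%) without the repeated members. The median signal of 65.0 was 62.9 on the conservative list and 122 with the highest summit within 10 kb. As a percentile it was 75.7, and 78.6 to 80.9 in single replicates. The H4 median exceeded that of the other classes together by 93.1, by 96.8 on nearest or own summits, by 93.7 on the conservative list and by 49.2 within 10 kb. As a percentile difference this was 20.3, 18.6 to 21.6 in single replicates and 5.42 within 10 kb. The Hist2 median exceeded that of Hist1 by 35.3, by 9.71 with each peak once, and by −38.0 within 10 kb, a reversal. As a percentile difference it was 11.7, 5.45 to 9.22 in single replicates, −1.07 with each peak once and −5.20 within 10 kb. On the percentile scale the order turned in both of these last settings, and in signal it turned only within 10 kb. The share of peaks matched in both replicates (96.9%) was 76.6% with summits within 100 bases, 89.1% with 50% overlap and 78.1% on the highest peaks of each list. The share of other genes in the Hist1 span with a summit (4.08%) was 18.4% within 10 kb. In the 150 bases before the TSS the TATA box was in 40.3% of members (7.12% of other genes) and the Hinfp core in 19.4% (5.9%). There the GC box was in 26.9% (35.2%) and the ETS site in 0% (6.73%). Over all transcript starts the H1 box was in 13.4% of members, of which 63 have 1 start, and in 19.1% of other genes. The TATA box, CCAAT box, octamer, Hinfp core and cyclic AMP response element stayed more common in members. The cause of these moves was not tested, beyond the wider or narrower window that each names. Of 68 alternatives, 44 left the value within its spread, 23 moved it and 1 reversed it. The alternatives on repeated words, RefSeq starts, protein-coding transcripts and own summits were chosen after seeing the data. No paired analysis was possible because there is 1 group. Unknown read depth limits what an absent peak shows.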
